A study of Mus musculus with 9 samples.

Results

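Trem2, Tyrobp and 8 genes that mark lipid-associated macrophages, Apoe, Lpl, Fabp5, Gpnmb, Cst7, Spp1, Lgals3 and Cd9, were followed in CT2A glioma tissue from mouse brains after tumour resection. They are 10 of the 18639 gene entries in the deposited tables. Trem2 and Tyrobp were picked because an earlier paired fit of these libraries placed them higher with ThTC, so their differences between groups are given as a description, without a test. The other 8 were picked as known markers, and they were tested. CT2A is a mouse glioma cell line, and the tissue was taken on day 5 after resection. One group of 3 libraries had sECM only, a second GFP-TC, the control cells, and the last ThTC, which are CT2A cells secreting IFNβ and GM-CSF. All groups share the wild-type CT2A tumour and the resection. Mouse strain, sex and age, the cells from which GFP-TC were made, and the promoter that drives the secreted factors are not given in the labels. Whether the 3 libraries of each group stem from different mice is not stated either, and the p-values then measure no more than the spread among these libraries, which may be technical.

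TREM2 is a surface receptor of macrophages and microglia that binds lipids and lipoproteins. It has no signalling tail of its own and passes its signal through TYROBP (DAP12), an adaptor whose phosphorylated motif recruits the kinase SYK. In tissues loaded with lipid, and in brains with myelin debris or plaques, TREM2-dependent macrophages and microglia take on a state in which genes for lipid transport, lysosomal function and secreted matrix proteins are raised. The same state has been described in tumour macrophages, and several of its genes are also made by tumour cells, astrocytes or other cells of the brain.

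Levels are in TPM, which scales reads to the length of the gene and to a fixed total per library. The labels state 4.47 Gb of bases for each sample, and the number of reads behind a value is unknown. Transcripts of general macrophage genes were detected in every library, with Csf1r, the receptor for colony stimulating factor 1, between 54.1 and 220 TPM and C1qa, a complement gene, between 386 and 1549 TPM. In bulk tissue, fewer cells of a type and less RNA per cell cannot be told apart. The libraries differed within groups in the RNA of other tissue: the summed TPM of 8 neuronal marker genes ran from 192 to 319 with sECM only, from 83.7 to 1111 with GFP-TC and from 120 to 1297 with ThTC. GFP-TC replicate 1 had the lowest summed TPM of the neuronal list and of 10 general macrophage genes.

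Of the 10 genes, 7 had promoter sequences in the RefSeq table of GRCm38.p6, with 10 windows of 300 bases in all, and Tyrobp, Lpl and Fabp5 had none. The windows run from 250 bases before the start site to 50 after it, and 5 short motifs were searched on both strands. TGANTCA, a loose form of the AP-1 site with any base at N, was found in 7.81% of all 32851 windows. It was found in the windows of Trem2 at position -9, of Cst7 at position -6 and of Gpnmb at position 8, counted from the start site. The middle base was A in Trem2 and T in Cst7, not the C or G of the usual AP-1 site. GAGGAA, a core of ETS factors such as PU.1, was found in 28.3% of all windows, and lay in Trem2 at position -40, in the first Spp1 window at position -113 and in 2 of the 3 Apoe windows. An interferon-response type of motif, TTTC repeated after a gap of 2 bases, was found in 3.44% of all windows and, among the 10 genes, in Spp1 at position -157. CATGTG was found in 14.2% of all windows and in the Cd9 window at position -38. CACGTG, in 7.15% of all windows, was not found in these windows, and no motif was found in the Lgals3 window. No motif that was found overlapped another. The 250 bases before the start of Trem2 (chr17:48346151-48346400, plus strand), Cst7 (chr2:150570165-150570414, plus strand) and Spp1 (chr5:104434861-104435110, plus strand) are shown because Cst7 followed Trem2 across libraries and Spp1 did not. They are written 5′ to 3′, with the bases of the motifs in capitals. The last base of the Cst7 motif lies past the end of the stretch shown.
Trem2: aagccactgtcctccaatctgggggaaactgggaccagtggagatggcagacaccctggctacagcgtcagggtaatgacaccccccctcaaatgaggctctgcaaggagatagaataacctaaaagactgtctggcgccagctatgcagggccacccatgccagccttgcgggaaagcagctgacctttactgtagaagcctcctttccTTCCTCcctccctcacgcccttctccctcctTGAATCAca
Cst7: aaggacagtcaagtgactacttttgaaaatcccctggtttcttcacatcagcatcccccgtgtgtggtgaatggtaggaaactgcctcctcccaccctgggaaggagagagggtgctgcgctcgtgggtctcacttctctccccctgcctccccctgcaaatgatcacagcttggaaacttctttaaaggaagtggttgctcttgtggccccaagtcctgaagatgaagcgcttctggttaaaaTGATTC
Spp1: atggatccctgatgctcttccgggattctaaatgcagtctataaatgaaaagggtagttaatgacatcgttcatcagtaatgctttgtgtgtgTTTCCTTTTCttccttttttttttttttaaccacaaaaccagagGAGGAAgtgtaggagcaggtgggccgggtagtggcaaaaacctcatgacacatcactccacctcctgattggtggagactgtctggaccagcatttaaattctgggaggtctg
A motif found by its letters is a description of the sequence, not a bound site.

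Trem2, the receptor (chromosome 17, 48346401 to 48352276, GRCm38.p6), was at 68.7, 58.0 and 42.2 TPM in sECM only replicates 1, 2 and 3, at 25.3, 47.4 and 72.15 TPM in the GFP-TC replicates, and at 69.4, 108 and 128 TPM in the ThTC replicates. Values of other genes are given in the same order. The ThTC library with the least Trem2 lay just above the highest sECM only library and below GFP-TC replicate 3, so ThTC overlapped GFP-TC and did not overlap sECM only. The group means were 56.3 ± 13.4, 48.3 ± 23.4 and 102 ± 30.0 TPM (SD, n = 3 each), a ratio of 2.11 between ThTC and GFP-TC.

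Tyrobp, the adaptor (chromosome 7, 30413782 to 30417582), was at 341, 262 and 248.6 TPM with sECM only, at 167, 244 and 327 TPM with GFP-TC, and at 399, 622 and 562 TPM with ThTC. All 3 ThTC libraries lay above the 6 others. The means were 284 ± 49.9, 246 ± 79.6 and 528 ± 115 TPM (SD, n = 3 each), a ratio of 2.15 between ThTC and GFP-TC and of 1.86 between ThTC and sECM only. The mean proportion of receptor to adaptor was similar between groups: per 100 TPM of Tyrobp there were 19.75 ± 2.62 TPM of Trem2 with sECM only, 18.9 ± 3.51 with GFP-TC and 19.2 ± 3.15 with ThTC (SD, n = 3 each). It ran from 15.1 in GFP-TC replicate 1 to 22.8 in ThTC replicate 3. Both genes were chosen for being higher with ThTC, so this is a description.

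**Figure D1:**
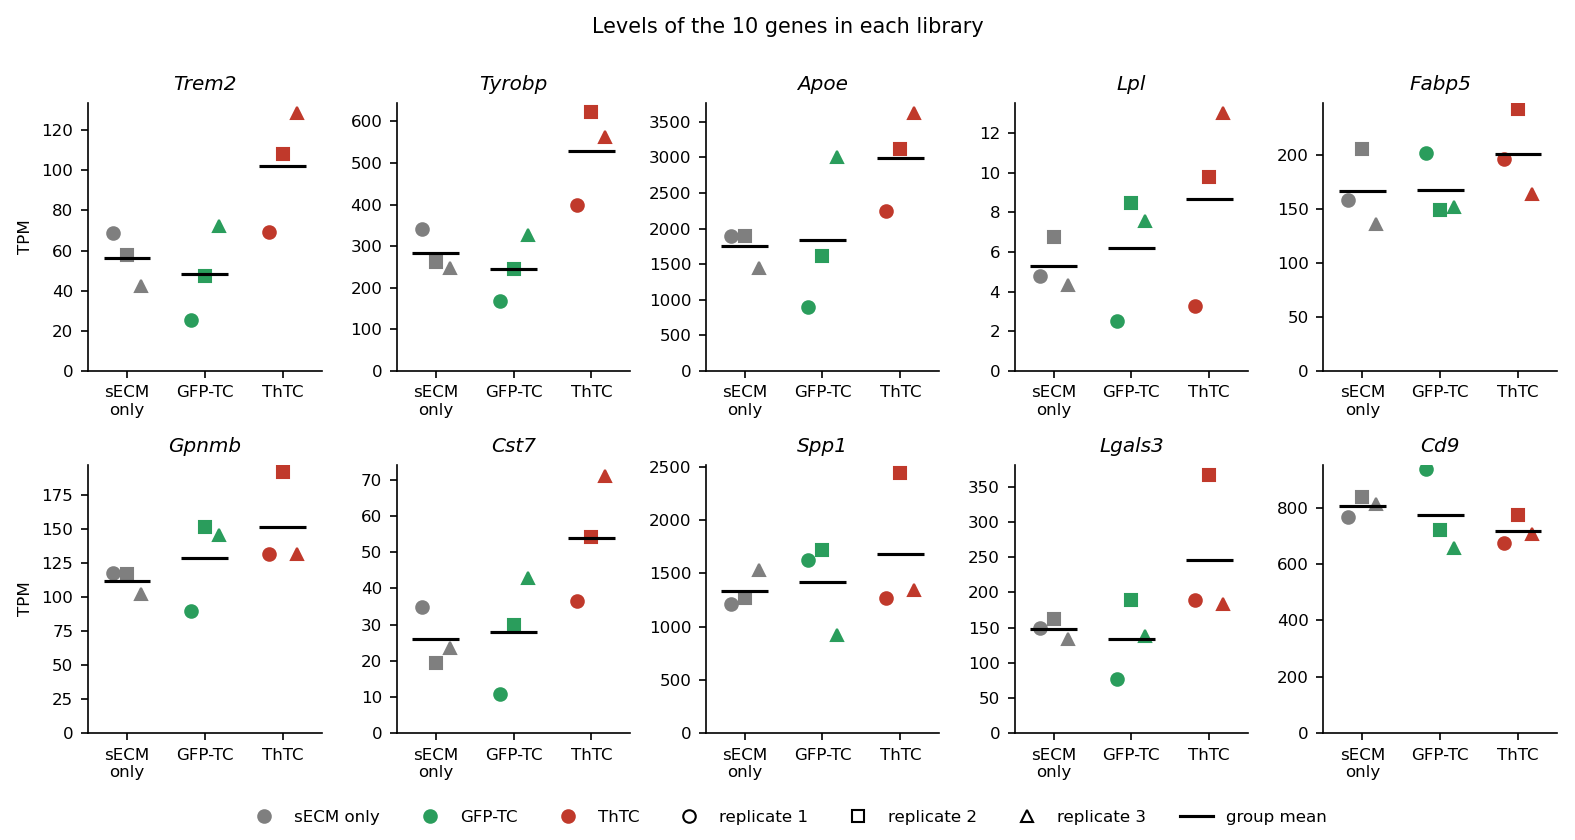
Levels of the 10 genes in TPM in each of the 9 libraries, with 1 point per library, symbols for the replicate number and a bar at the group mean; each panel has its own axis starting at 0. The 3 ThTC libraries lie above all others for Tyrobp (399 to 622 TPM), while Fabp5, Spp1 and Cd9 overlap between all groups.

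Apoe, Lpl and Fabp5 handle lipids. Apoe, which encodes the lipoprotein particle component apolipoprotein E and is made by astrocytes as well as macrophages (chromosome 7, 19696244 to 19701310), was at 1899.9, 1901 and 1451 TPM with sECM only, at 892, 1612 and 3013 TPM with GFP-TC, and at 2242, 3123 and 3632 TPM with ThTC. GFP-TC spanned a wide range, and its replicate 3 reached the level of ThTC, so those groups overlapped, whereas all 3 ThTC libraries lay above sECM only. Lpl, lipoprotein lipase (chromosome 8, 68880555 to 68906932), was the lowest of the 10, at 4.76, 6.74 and 4.31 TPM with sECM only, at 2.53, 8.46 and 7.57 TPM with GFP-TC, and at 3.27, 9.77 and 12.99 TPM with ThTC. Both GFP-TC and ThTC had their lowest Lpl in replicate 1, and all groups overlapped. Fabp5, a carrier of fatty acids within cells (chromosome 3, 10012585 to 10016610), was at 158, 206 and 137 TPM with sECM only, at 202, 149 and 152 TPM with GFP-TC, and at 197, 243 and 164 TPM with ThTC. Its highest value was only 1.78 times its lowest over the 9 libraries, and the groups overlapped.

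Gpnmb and Cst7 belong to the lysosomal side of the state. Gpnmb, a membrane glycoprotein of lysosomes and melanosomes (chromosome 6, 49036518 to 49058182), was at 117, 117 and 102 TPM with sECM only, at 89.95, 151 and 145 TPM with GFP-TC, and at 132, 192 and 131 TPM with ThTC. ThTC lay above sECM only in all 3 libraries and overlapped GFP-TC. Cst7, which encodes cystatin F, an inhibitor of lysosomal cathepsins also made by cytotoxic lymphocytes (chromosome 2, 150570415 to 150578944), was at 34.9, 19.3 and 23.4 TPM with sECM only, at 10.7, 29.9 and 43.0 TPM with GFP-TC, and at 36.5, 54.3 and 71.15 TPM with ThTC. The highest Cst7 value was 6.66 times the lowest, the widest range of the 10 genes, and ThTC again lay above sECM only while overlapping GFP-TC.

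Spp1, Lgals3 and Cd9 encode secreted or surface proteins. Spp1, osteopontin (chromosome 5, 104435111 to 104441053), was at 1209, 1274 and 1534 TPM with sECM only, at 1626, 1719 and 919 TPM with GFP-TC, and at 1273, 2445 and 1343 TPM with ThTC. One ThTC library, replicate 2, stood above the rest, and the others were mixed between groups. Lgals3, the galactose-binding lectin galectin-3 (chromosome 14, 47373860 to 47386167), was at 149, 162 and 134 TPM with sECM only, at 76.6, 189 and 138 TPM with GFP-TC, and at 189, 367 and 183 TPM with ThTC. The same ThTC library had the highest Lgals3, and ThTC lay above sECM only and touched the top of GFP-TC. Cd9, a tetraspanin of many cell types (chromosome 6, 125460266 to 125494760), was at 766, 839 and 813 TPM with sECM only, at 938, 721 and 658 TPM with GFP-TC, and at 674, 772 and 707 TPM with ThTC. It varied least of the 10 genes, with a highest value 1.43 times its lowest, and was the only one with a lower mean in ThTC than in both other groups.

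By mean level over the 9 libraries, Apoe came first with 2196 TPM and Spp1 next with 1482 TPM, but Apoe was above Spp1 in only 6 of 9 libraries. Cd9 (765 TPM) and Tyrobp (353 TPM) followed, each below the gene before it in 9 of 9 libraries. Fabp5 (179 TPM), Lgals3 (176 TPM) and Gpnmb (131 TPM) were not clearly ordered, since Fabp5 was above Lgals3 in 6 libraries and Lgals3 above Gpnmb in 7. Trem2 (68.9 TPM), Cst7 (35.9 TPM) and Lpl (6.71 TPM) came last in that order in 9 of 9 libraries.

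ThTC were first set against GFP-TC, the group labelled as control cells. Of the 8 markers, 7 had a higher mean log2(TPM + 1) with ThTC and 1 a lower mean, with a median difference of 0.32, where the median of all tested genes was -0.10 and 33.8% of genes had a higher mean. The largest differences were those of Cst7 at 1.08 (SE 0.472, adjusted p = 0.334), Lgals3 at 0.89 (SE 0.351, adjusted p = 0.319) and Apoe at 0.85 (SE 0.395, adjusted p = 0.348) in limma, a moderated linear model fitted to all tested genes. Lpl differed by 0.39 (SE 0.502), Fabp5 by 0.26 (SE 0.197), Gpnmb by 0.25 (SE 0.217), Spp1 by 0.23 (SE 0.305) and Cd9 by -0.092 (SE 0.132). None of the 8 passed an adjusted p of 0.05 in limma, and neither did any of the 13829 tested genes (0%). At an unadjusted p under 0.05 there were 2 of the 8, Cst7 and Lgals3, against 14.9% of all tested genes. For the 2 genes the choice rested on, the same difference was 1.14 for Trem2 and 1.13 for Tyrobp. Of the 10 genes, Tyrobp alone did not overlap between these groups, where 2.2% of tested genes lay wholly higher and 16.9% wholly lower with ThTC.

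The larger of these differences leaned on GFP-TC replicate 1, which had the lowest value of the 9 libraries for 7 of the 10 genes. Without it the difference was 0.53 for Cst7, 0.53 for Lgals3 and 0.42 for Apoe, and 0.75 for Trem2 and 0.88 for Tyrobp. Lpl fell to -0.061 and Gpnmb to 0.0093, while Fabp5 rose to 0.40, Spp1 to 0.36 and Cd9 to 0.057. The median of the 8 markers was then 0.38, where that of all tested genes was -0.21. The reference level also matters, since TPM are shares of a total. Rescaling the libraries by the median ratio of genes moved the median of all genes by 0.12, to 0.020. With it Cd9 changed sign to 0.043, and the genes at an unadjusted p under 0.05 went from 281 higher and 1784 lower to 774 higher and 515 lower.

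Taken by replicate number, Trem2 was 2.74, 2.28 and 1.78 times as high in ThTC as in GFP-TC for numbers 1, 2 and 3, and Tyrobp 2.39, 2.55 and 1.72 times. Of the 8 markers, Apoe (2.51, 1.94 and 1.21), Lpl (1.29, 1.15 and 1.72), Cst7 (3.41, 1.82 and 1.66) and Lgals3 (2.47, 1.94 and 1.33) were also higher in all 3 pairs, and 12% of tested genes were. Fabp5, Gpnmb, Spp1 and Cd9 were higher in some pairs and lower in others. In limma with a replicate block in these 6 libraries, 8 genes (0.0578%) were called, Trem2 and Tyrobp among them with an adjusted p of 0.022 each. That is the kind of fit they were chosen from, so these p-values support nothing. None of the 8 markers passed in the blocked fit, where Cst7 had an adjusted p of 0.0758, Lgals3 of 0.0809 and Apoe of 0.116.

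The comparison of ThTC with sECM only shares the ThTC libraries with the one above. The mean was higher with ThTC for 7 of the 8 markers, with a median difference of 0.45 against -0.032 for all genes, of which 44.4% had a higher mean. The ThTC libraries lay wholly above sECM only for 4 of the 8, Apoe, Gpnmb, Cst7 and Lgals3, where 5.03% of tested genes lay wholly higher and 12.1% wholly lower. Cst7 differed by 1.02 and Apoe by 0.76, followed by Lgals3 at 0.65, Lpl at 0.48 and Gpnmb at 0.41. Fabp5 and Spp1 each differed by 0.27, and Cd9 by -0.17. In limma 0 of the 8 passed, with adjusted p-values from 0.687 to 0.824, as did 0% of tested genes, and at an unadjusted p under 0.05 there were 0 of the 8 against 6.9% of all genes. Median-ratio scaling changed the latter genes from 213 higher and 741 lower to 410 higher and 475 lower. Trem2 and Tyrobp differed by 0.83 and 0.88 and did not overlap either.

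GFP-TC, the control cells, were last compared with sECM only. Among the 8 markers, 4 had a higher and 4 a lower mean with GFP-TC, and their median difference was -0.021, where the median of all genes was 0.077 and 71.8% of genes had a higher mean. All 10 genes overlapped between these groups, and 3.15% of tested genes lay wholly higher and 1.08% wholly lower. The differences ran from -0.31 for Trem2 to 0.16 for Gpnmb. None passed in limma (smallest adjusted p of the 8 markers 0.997), nor did any tested gene (0%). At an unadjusted p under 0.05 there were 0 of the 8 and 0.933% of all genes. With the median-ratio scaling, 2 of the 10 genes were higher and 8 lower, against 4 and 6 as deposited. Of all genes at an unadjusted p under 0.05, 37 were then higher and 107 lower, against 69 and 60 as deposited.

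**Figure D2:**
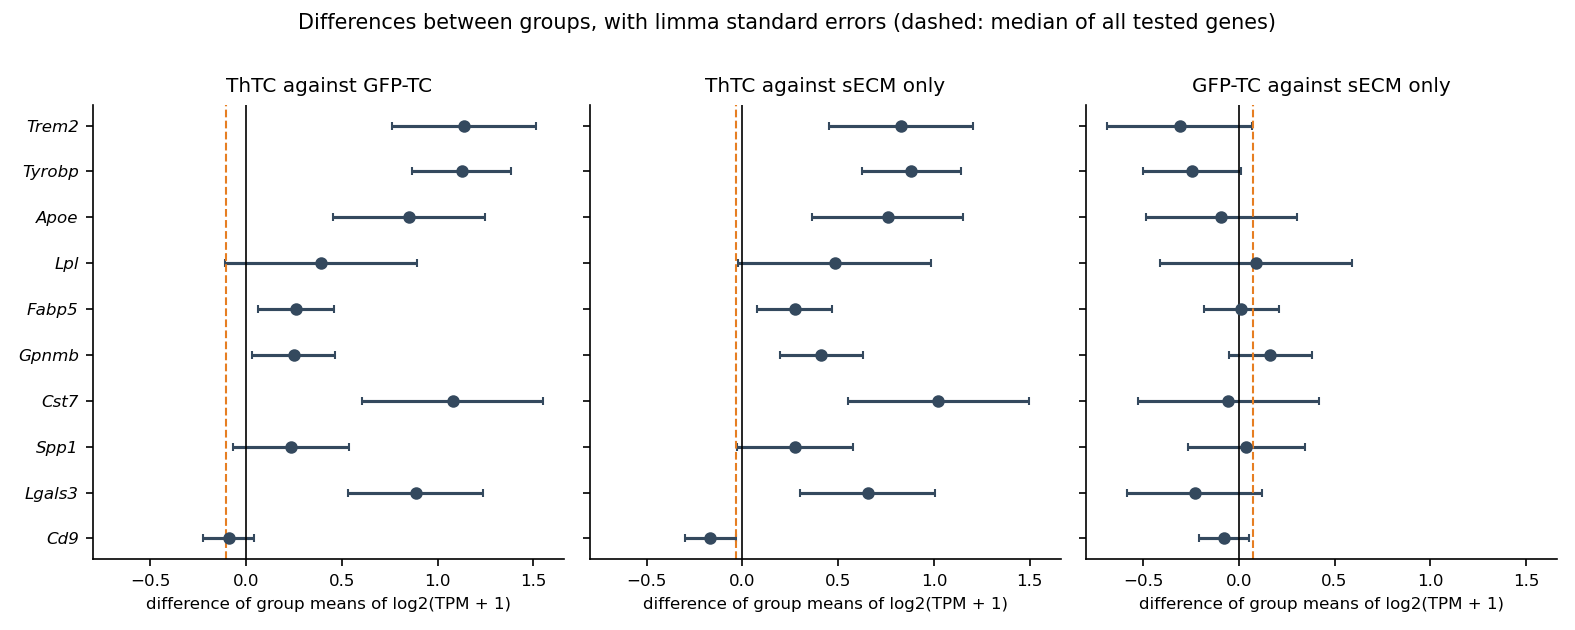
Differences between group means of log2(TPM + 1) for the 10 genes in the 3 comparisons, with bars of 1 limma standard error and a dashed line at the median of all tested genes. With ThTC against GFP-TC, Cst7 (1.08), Lgals3 (0.89) and Apoe (0.85) have the largest differences of the 8 markers, and the GFP-TC against sECM only panel holds values between -0.31 and 0.16.

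A set of 10 general macrophage genes (Csf1r, Adgre1, Aif1, Fcgr1, Itgam, Mertk, Lyz2, C1qa, C1qb and C1qc) served as a reference for the amount of macrophage RNA. Their mean log2(TPM + 1) was 7.28, 6.92 and 7.20 with sECM only, 6.26, 7.15 and 7.56 with GFP-TC, and 7.33, 7.75 and 7.93 with ThTC. All 10 had a higher mean with ThTC than with GFP-TC, with a median difference of 0.80, and none passed in limma. Without GFP-TC replicate 1, 7 of the 10 had a higher mean and the median was 0.41, against 23.8% and -0.21 for all tested genes. Lyz2, the lysozyme gene, had a mean of 1036 ± 416 TPM with ThTC against 498 ± 109 TPM for GFP-TC (SD, n = 3; limma adjusted p = 0.316). C1qb had 1262 ± 265 against 706 ± 321 TPM, and C1qa 1279 ± 277 against 716 ± 333 TPM (SD, n = 3).

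Set against this reference within each library, the 10 genes parted. Between ThTC and GFP-TC, 5 of them had a higher and 5 a lower relative level, with a median difference of -0.059 on the log2 scale. Trem2 was at -1.03 ± 0.148 with ThTC and -1.49 ± 0.109 with GFP-TC, and Tyrobp at 1.35 ± 0.163 and 0.90 ± 0.196 (SD, n = 3). For both, all 3 ThTC libraries lay above all 3 GFP-TC libraries, where 0.159% of tested genes did and 32.9% lay wholly lower. Trem2 per 100 TPM of Csf1r was 63.5 ± 11.8 with ThTC, 39.4 ± 6.54 with GFP-TC and 47.2 ± 11.3 with sECM only (SD, n = 3). Such a proportion depends on the reference gene. The ratio of mean TPM between ThTC and GFP-TC was 1.26 for Csf1r, against 2.11 for Trem2. Over the 10 reference genes it ran from 1.04 for Mertk to 2.08 for Lyz2. The values of Trem2 and Tyrobp come from the contrast the 2 genes were chosen by, and are a description.

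Of the 8 markers, Cst7 differed by 0.40, Lgals3 by 0.21 and Apoe by 0.17 relative to the reference, and Lpl by -0.29, Fabp5 by -0.42, Gpnmb by -0.43, Spp1 by -0.44 and Cd9 by -0.77. The groups overlapped for all 8, and exact two-sided permutation p-values ran from 0.2 for Cst7 to 0.7 for Lgals3, where 3 libraries against 3 cannot give less than 0.1. Between ThTC and sECM only, Cst7 lay wholly higher, by 0.49, and Cd9 wholly lower, by -0.71, each at the smallest possible exact permutation p of 0.1. By the same measure 0.325% of tested genes lay wholly higher and 49.7% wholly lower, so the Cd9 value is common among genes. Tyrobp was wholly higher too, by 0.35, and Trem2 overlapped, with a difference of 0.29. Between GFP-TC and sECM only every one of the 10 overlapped, and 7.27% of tested genes lay wholly higher and 0.275% wholly lower.

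**Figure D3:**
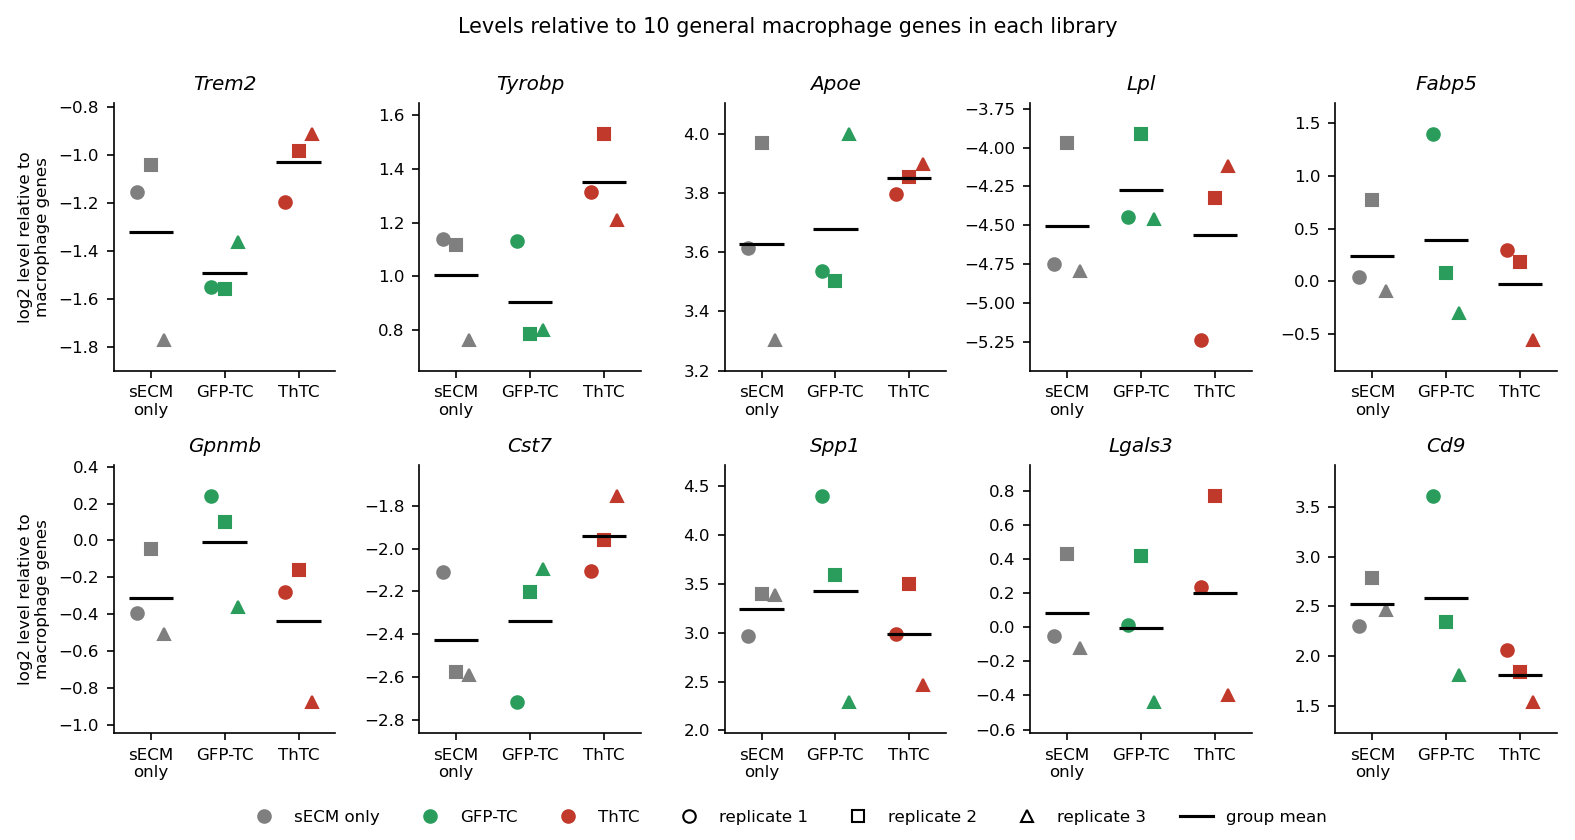
Level of each of the 10 genes relative to 10 general macrophage genes, as log2(TPM + 1) minus the mean of the reference, in the 9 libraries, with bars at group means; each panel has its own axis. Trem2 and Tyrobp have group means of -1.03 and 1.35 with ThTC, above -1.49 and 0.90 with GFP-TC. Lpl, Fabp5, Gpnmb, Spp1 and Cd9 have their lowest mean with ThTC.

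Across the 9 libraries, Apoe and Cst7 followed Trem2. Apoe correlated with Trem2 at Pearson's r = 0.97 and Spearman's rho = 0.98, with exact permutation p = 5.51e-06 and 4.96e-05, adjusted over 9 relations to 4.96e-05 and 0.000446. Cst7 did so at r = 0.94 and rho = 0.95 (exact permutation p = 0.000333 and 0.000353, adjusted p = 0.001 and 0.00159). Lpl (r = 0.75), Lgals3 (r = 0.76) and Gpnmb (r = 0.71) passed by Pearson's r, with adjusted exact permutation p of 0.0416, 0.0451 and 0.0494, but not by rho, which was 0.70, 0.60 and 0.63 (adjusted p of 0.0973, 0.124 and 0.114). Cd9 (r = -0.64, rho = -0.65, adjusted exact permutation p = 0.0772 and 0.114), Fabp5 (r = 0.16, rho = 0.27, adjusted exact permutation p = 0.766 and 0.552) and Spp1 (r = -0.024, rho = -0.23, adjusted exact permutation p = 0.952 and 0.552) did not pass. Over the 8 markers, 5 passed by r and 2 by rho, and an r at least as far from 0 as that of Gpnmb was found for 20.3% of 11192 other genes averaging 5 TPM or more. Tyrobp correlated with Trem2 at r = 0.96, which is a description since both were chosen by the same contrast. The p-values of the markers with Trem2 exchange all 9 libraries. They therefore include the difference between groups that Trem2 was chosen by, and are a description too.

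Leaving out the libraries farthest from the median of Trem2, GFP-TC replicate 1 and ThTC replicate 3, gave r = 0.90 for Apoe (adjusted exact permutation p = 0.0134), 0.81 for Cst7 (adjusted exact permutation p = 0.0762), 0.72 for Gpnmb, 0.70 for Lgals3 and 0.34 for Lpl. With 7 libraries left, Apoe alone of the 8 markers passed; r of Gpnmb and Lgals3 was nearly as before, and that of Lpl was 0.34 against 0.75. Within groups, as deviations from the group means, r was 0.97 for Apoe and 0.92 for Cst7, with an adjusted exact permutation p of 0.0556 each, and 0 of 9 relations passed.

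The general macrophage reference itself correlated with Cst7 at r = 0.98 and with Apoe at r = 0.94 (adjusted exact permutation p = 8.27e-05 and 0.00182 over 10 relations, rho = 0.98 and 0.88). Trem2 and Tyrobp correlated with it at 0.93 and 0.91 (rho = 0.93 and 0.88). Of the 8 markers, 6 passed by r and 2 by rho, and 19.7% of other genes had an r with the reference at least as far from 0 as the weakest of the 6. Of the 10 genes, Cst7 alone passed when GFP-TC replicate 1 and ThTC replicate 3 were left out (r = 0.95, adjusted exact permutation p = 0.0198) and as deviations from group means (r = 0.98, adjusted p = 0.0463). Cd9 correlated negatively with the reference (r = -0.75, rho = -0.68), and Spp1 (r = -0.030) and Fabp5 (r = -0.11) showed little relation to it.

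**Figure D4:**
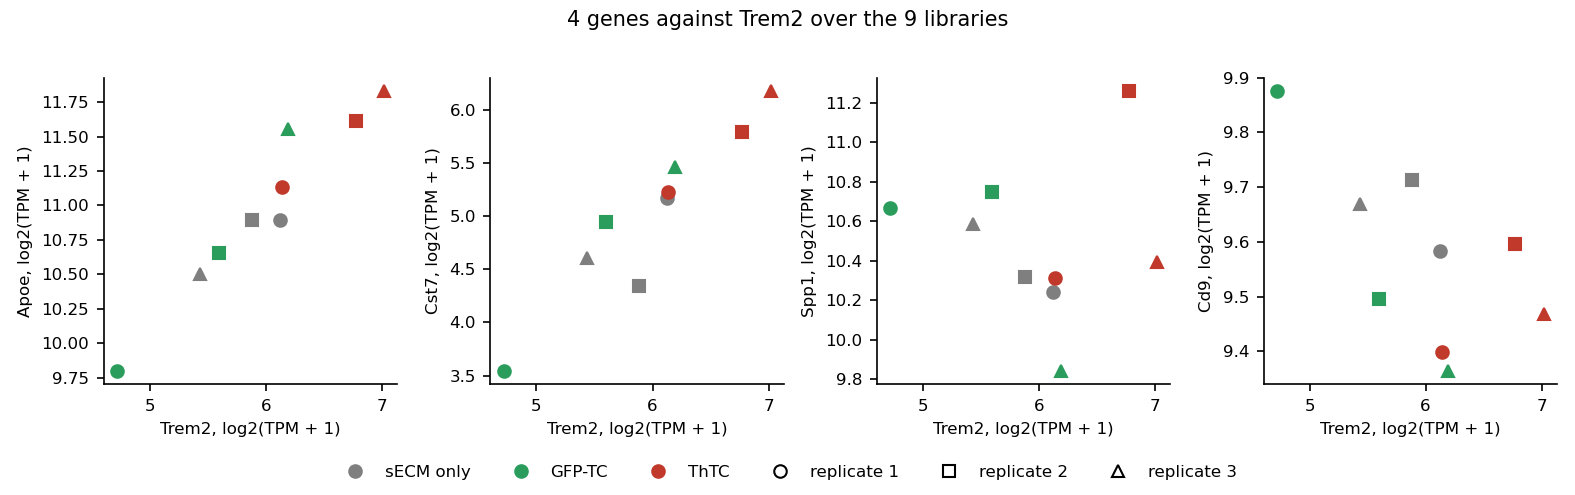
Apoe, Cst7, Spp1 and Cd9 against Trem2, all as log2(TPM + 1), with 1 point per library coloured by group and shaped by replicate number; axes do not start at 0. Apoe (r = 0.97) and Cst7 (r = 0.94) lie along a rising line from GFP-TC replicate 1 to ThTC replicate 3, and Spp1 (r = -0.024) does not.

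Among 11192 other genes averaging 5 TPM or more, those most like Trem2 over the 9 libraries were Tnfaip8l2, a negative regulator of immune cell activation (r = 0.98), Hpse, heparanase (r = 0.98), AB124611 (r = 0.97), Smpdl3a, a sphingomyelinase-like phosphodiesterase (r = 0.96), and Vamp8, an endosomal SNARE gene (r = 0.96). Those most like Tyrobp were Cyba, a subunit of the phagocyte NADPH oxidase (r = 0.99), Arl11 (r = 0.99), Tnfaip8l2 (r = 0.98), AB124611 (r = 0.97) and Cotl1, an actin-binding gene (r = 0.97). An r above 0.9 with Trem2 was reached by 0.634% of these genes. Placed in the same ranking, with the other 9 genes added to make 11201, Apoe came 4th, Tyrobp 9th and Cst7 19th, while Lgals3 came 561st, Lpl 620th, Gpnmb 875th, Fabp5 3794th, Spp1 4622nd and Cd9 9187th. These correlations are descriptions over libraries that share the groups and their tissue content.

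The rest of the TREM2 and TYROBP pathway was read from a list of 22 genes for other receptors that use the adaptor, the kinases and lipases downstream, and the sheddases of TREM2. Trem3, between 0.22 and 1.11 TPM, was below the level needed for testing. Of the 21 tested, 17 had a higher and 4 a lower mean with ThTC than with GFP-TC, with a median difference of 0.38, and 0 passed in either direction in limma. Without GFP-TC replicate 1, 12 had a higher mean and the median was 0.015, against 23.8% and -0.21 for all tested genes. The smallest p-values were those of Trem1, a receptor that signals through TYROBP, at 4.01 ± 2.10 against 1.5 ± 0.611 TPM (adjusted p = 0.316), and Hcst, the related adaptor DAP10, at 8.16 ± 0.583 against 3.86 ± 2.88 TPM (SD, n = 3; limma adjusted p = 0.325). For both, the ThTC libraries lay above both other groups, though Trem1 was low there, between 0.8 and 1.95 TPM. Of the 21, 2 lay wholly higher and 0 wholly lower than GFP-TC, where 2.2% and 16.9% of tested genes did. Against sECM only these were 5 and 1, where 5.03% and 12.1% of tested genes did. Rac2, a small GTPase of blood cells, had 71.1 ± 10.9 against 47.4 ± 24.5 TPM and overlapped. Against sECM only, 19 of the 21 had a higher mean with ThTC (median 0.34), and between GFP-TC and sECM only 12 did (median 0.021), again with 0 passing.

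Of 26 tested genes from other descriptions of lipid-associated and disease-associated macrophages, 19 had a higher and 7 a lower mean with ThTC than with GFP-TC, with a median difference of 0.27 and 0 passing. Without GFP-TC replicate 1, 14 of the 26 had a higher mean and the median was 0.054, against 23.8% and -0.21 for all tested genes. Npc2, which moves cholesterol out of lysosomes, was at 298.5 ± 19.3 TPM in the ThTC libraries, against 238 ± 16.8 TPM for GFP-TC and 255 ± 11.5 TPM for sECM only (SD, n = 3; limma adjusted p = 0.316 for ThTC against GFP-TC), without overlap. Ctsb, the lysosomal protease cathepsin B, was at 1720 ± 410 against 1122 ± 326 TPM (limma adjusted p = 0.319). Hif1a, the hypoxia-responsive factor, went the other way, at 101 ± 4.90 against 119 ± 9.02 TPM (limma adjusted p = 0.316), and lay wholly below both other groups. Of the 26, 2 lay wholly higher and 1 wholly lower with ThTC than with GFP-TC, where 2.2% and 16.9% of tested genes did. For ThTC and sECM only these were 5 and 1, where 5.03% and 12.1% of tested genes did. Against sECM only, 15 of the 26 had a higher mean with ThTC (median 0.22), and between GFP-TC and sECM only 12 did (median -0.040).

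Homeostatic microglia genes mark microglia in their resting state. Of 12 such genes, 10 had a higher mean with ThTC than with GFP-TC, with a median difference of 0.48, and none passed in limma. Without GFP-TC replicate 1, 8 of the 12 had a higher mean and the median was 0.041, against 23.8% and -0.21 for all tested genes. Gpr34, a lipid receptor, was at 9.03 ± 5.23 against 4.64 ± 2.62 TPM (limma adjusted p = 0.442), and Selplg, a selectin ligand, at 112 ± 33.6 against 76.2 ± 43.5 TPM (SD, n = 3; limma adjusted p = 0.476). Siglech stood in this list and in the pathway list.

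Cytotoxic T and NK cells also make Cst7 and, in NK cells, Tyrobp. All 10 of their markers had a higher mean with ThTC than with GFP-TC, with a median difference of 1.09, and 0 passed in limma. Without GFP-TC replicate 1 the median difference was 0.37, with all 10 means still higher, against -0.21 and 23.8% for all tested genes. Their summed level was 97.6 to 232 TPM with sECM only, 40.1 to 267 TPM with GFP-TC and 276 to 501 TPM with ThTC. Gzma, granzyme A, was at 52.7 ± 14.5 against 19.1 ± 12.2 TPM (limma adjusted p = 0.316), Klrd1, an NK receptor gene, at 12.5 ± 2.05 against 5.25 ± 3.20 TPM, and Nkg7, a cytotoxic granule gene, at 67.5 ± 1.89 against 35.2 ± 26.9 TPM (SD, n = 3). The part of these cells in the Cst7 and Tyrobp values was not tested.

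Other cells that can express some of the 10 genes were read in the same way. Neutrophil markers summed to 20.1 to 40.0 TPM with sECM only, 9.71 to 29.98 TPM with GFP-TC and 19.5 to 31.6 TPM with ThTC, and their defining gene Ly6g was listed at 0 in 8 of 9 libraries. Astrocyte markers, relevant to Apoe, summed to 450 to 720 TPM with sECM only, 248.8 to 1312 TPM with GFP-TC and 424 to 1527 TPM with ThTC. Of these, 6 of 7 had a higher mean with ThTC than with GFP-TC (median 0.20). Without GFP-TC replicate 1, 0 of 7 did (median -0.31), against 23.8% of all tested genes (median -0.21). Oligodendrocyte markers, relevant to Cd9, summed to 297 to 654, 165 to 1828 and 146 to 2215 TPM in the same order of groups. Fibroblast markers, whose cells can make Spp1 and Lgals3, summed to 1264 to 1565, 1335 to 1803 and 978 to 1363 TPM. Most of that sum was Col3a1, with means of 1314, 1393 and 1027 TPM in the same order of groups. Of the markers, 4 of 6 had a lower mean with ThTC than with GFP-TC (median -0.23), and Col1a1 and Col1a2 had a higher mean. The members with the smallest p in that comparison were Retnlg, Csf3r and S100a9 for neutrophils, Gja1, Gfap and Aldoc for astrocytes, Cnp, Mobp and Mbp for oligodendrocytes, and Col3a1, Lum and Pdgfra for fibroblasts. No marker of these 4 lists passed, and their part in the values of the 10 genes was not tested.

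With GFP-TC replicate 1 left out, 0 of 8 neuronal genes and 0 of 6 oligodendrocyte genes had a higher mean with ThTC (medians -0.79 and -0.71), and 1 of 5 dendritic cell genes did (median -0.23). Of all tested genes, 23.8% then had a higher mean, with a median of -0.21. The remaining marker lists held no called gene between ThTC and GFP-TC either. A higher mean with ThTC was seen for 4 of 8 neuronal genes (median 0.027, led by Nefl, Snap25 and Syn1), 3 of 5 dendritic cell genes (median 0.11, led by Zbtb46, Clec9a and Xcr1), and 2 of 6 endothelial genes (median -0.056, led by Cdh5, Flt1 and Pecam1). It was also seen for 2 of 5 genes of dividing cells (median -0.19, led by Mki67, Ccnb1 and Top2a), 0 of 3 choroid plexus genes (median -0.41, led by Aqp1, Ttr and Folr1) and 1 of the 2 platelet genes Pf4 and Itga2b (median 0.33). The genes named are those with the smallest p of each list. Among the choroid plexus genes, Ttr ran from 0.18 to 384 TPM, highest in GFP-TC replicate 1, while Aqp1 ran from 217 to 380 TPM.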

How the data were processed

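The data are 9 bulk RNA-seq libraries of CT2A tumour tissue, 3 per treatment group by the treatment label, were used. The deposited files give 1 TPM value per gene, computed by the authors with a quantifier that is not given in the sources used here. HISAT and the builds GRCm38.p6 and mm10 are named in the submitters' processing notes. Counting intervals were not computed, because TPM does not preserve depth. Plin2, with 2 entries, was left out.

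Values were taken as log2(TPM + 1), which understates the change of low genes. The 13829 genes that reached 1 TPM in 3 or more libraries were fitted with limma 3.58.1 (R 4.3.3, intensity trend, 9 libraries, no block), with Benjamini-Hochberg adjustment over all tested genes at 0.05. Of these steps, only the limma fit of ThTC against GFP-TC was tried on simulated data. Relative levels and correlations were tested by exact two-sided permutation. List medians without GFP-TC replicate 1 were added after seeing the data. Alternatives changed the pseudocount, filter, scaling, trend, covariates, replicate block and libraries. Figures were drawn with matplotlib 3.10.9.

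The 10 genes and all lists were chosen with earlier results of these data known. All 10 are named, with the 3 genes of each list that had the smallest p in ThTC against GFP-TC, and the 5 most like Trem2 and Tyrobp; 1 gene of the microglia list is not reported here. Csf1r, C1qa, Trem3 and Ly6g were named as markers or as members that were not tested.

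For GFP-TC and ThTC, deviations from the group means correlated between same-numbered libraries at 0.74, 0.12 and 0.87, each above 0.1, and by that rule the numbers were taken as pairs. What a number stands for is not labelled, and unlike numbers also correlated, for example 0.38 for GFP-TC 1 with ThTC 2. With sECM only the correlations between same-numbered libraries were mostly negative, from -0.55 to 0.28, and those between unlike numbers ran from -0.48 to 0.61.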

Additional observations from a re-analysis of the deposited data

How the results depend on the processing

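With the replicate block in the 6 libraries of ThTC and GFP-TC, 8 genes and 2 of the 10 were called, and with median-of-ratios scaling added, chosen after seeing the data, 0 were. With the block in all 9 libraries, 1 gene was called for GFP-TC against sECM only. The block changed no other call among the 10 genes. The brain tissue covariate, the mean level of the neuronal list, gave 2 calls in ThTC against sECM only, and 1 call in the comparison of GFP-TC with sECM only. The macrophage covariate was the mean level of the reference list. With it the median difference of the 10 genes between ThTC and GFP-TC fell from 0.62 to 0.25. Between ThTC and sECM only it fell from 0.57 to 0.22. These medians include Trem2 and Tyrobp, which were chosen for being higher with ThTC. The median of the 8 markers alone fell from 0.32 to 0.084 with GFP-TC as the control, and from 0.45 to 0.18 with sECM only. Leaving out 1 library gave medians of the 10 genes of 0.40 to 0.97 and 0.33 to 0.88 in the same order. For the 8 markers alone they ran from 0.17 to 0.65 and from 0.28 to 0.65. Each comparison with sECM only then had 0 to 1 called genes.

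Of 210 refits of the 10 genes per comparison, 9, 2 and 28 changed sign in the comparisons of ThTC with GFP-TC, of ThTC with sECM only and of GFP-TC with sECM only. The filter, the trend and the replicate block leave a difference as it is, and so does leaving out libraries of the group not compared. Many of these refits could therefore not change sign. For ThTC against GFP-TC, the macrophage covariate gave -0.45 for Lpl, -0.077 for Gpnmb and 0.11 for Cd9, and median-of-ratios scaling, with or without the block, 0.043 for Cd9. For ThTC against sECM only, the macrophage covariate gave -0.19 for Lpl. For GFP-TC against sECM only, it gave 0.075 for Apoe, -0.042 for Fabp5, 0.16 for Cst7 and -0.0038 for Spp1. Quantile scaling gave 0.052 for Apoe, -0.014 for Lpl and -0.029 for Fabp5, median-of-ratios scaling -0.083 for Fabp5 and -0.057 for Spp1, and the brain tissue covariate -0.053 for Lpl. Without 1 library, ThTC against GFP-TC ran from -0.061 to 0.90 for Lpl, -0.066 to 0.40 for Spp1 and -0.20 to 0.057 for Cd9, and ThTC against sECM only from -0.026 to 0.44 for Spp1. GFP-TC against sECM only ran from -0.65 to 0.082 for Trem2, -0.47 to 0.0061 for Tyrobp, -0.53 to 0.34 for Apoe, -0.17 to 0.54 for Lpl, -0.13 to 0.17 for Fabp5, -0.46 to 0.50 for Cst7, -0.12 to 0.33 for Spp1, -0.52 to 0.12 for Lgals3 and -0.23 to 0.030 for Cd9.

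By Pearson's r, 6 of 9 relations with Trem2 and 8 of 10 with the macrophage reference were under the threshold, and by Spearman's rho 3 and 4. All relations with Trem2, and those of Trem2 and Tyrobp with the reference, are descriptions. By r the numbers under the threshold were 0 and 1 as deviations from group means, 2 and 1 without the libraries farthest from the median, and 3 to 6 and 4 to 7 without 1 library. The r of Spp1 with Trem2 was 0.069 with median-of-ratios scaling, 0.23 without the farthest libraries and -0.55 to 0.13 without 1 library. That of Fabp5 with Trem2 was -0.31 as deviations and -0.16 to 0.50 without 1 library. With the reference, r of Fabp5 was 0.052 with median-of-ratios scaling, 0.31 without the farthest libraries and -0.49 to 0.17 without 1 library, and r of Spp1 was 0.043, 0.28 and -0.49 to 0.16. The causes were not tested. Depth is unknown, so the precision of low values such as those of Lpl cannot be given.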
